A study of Mus musculus with 24 samples.

Results

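Wnt feedback and target genes are the 10 genes Rnf43, Znrf3, Axin2, Nkd1, Notum, Apcdd1, Sp5, Tcf7, Tnfrsf19 and Cd44, taken from the gene table by symbol, and each matched 1 of its 55421 genes. In the canonical Wnt pathway, Wnt ligands bind Frizzled and Lrp receptors, the complex that destroys beta-catenin is held off, and beta-catenin joins Tcf/Lef factors at target genes. Several of the genes switched on in this way encode inhibitors of the pathway, so that signalling limits itself. In the crypt of the small intestine this pathway is known to maintain Lgr5+ stem cells and to direct the maturation of Paneth cells, which themselves are a source of Wnt3.

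The study examined loss of the histone methyltransferase SETD1A in the mouse small intestine. Hom mice were Setd1aFC/FC; Lgr5-eGFP-CreERT2 (knockout), the animals BN45, BO25, BO57 and BP04. Het mice were Setd1aFC/+; Lgr5-eGFP-CreERT2 (control), the animals BN44, BO27, BO58 and BP03. All 8 animals therefore carried the conditional allele on at least 1 chromosome, the Lgr5-driven Cre and tamoxifen, given as 1 mg on 3 consecutive days. Crypt cells were collected 4 days after induction and sorted for viability and on EpCAM, CD24 and CD45 into a stem, a transit-amplifying (TA) and a Paneth fraction, 1 library of each per animal, or 4 libraries in each of 6 groups. TA cells are the dividing progeny of stem cells. Cre was driven by Lgr5, which stem cells express, and how many cells of a fraction had recombined was not measured.

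Library totals ran between 24.73 and 47.05 M counts. Setd1a counts sum all exons and averaged 5.18 ± 1.49 CPM in hom and 5.63 ± 1.58 CPM in het stem libraries (SD, n = 4 each), so they do not check the genotype labels. Lgr5, the defining stem cell gene, averaged 202 ± 14.9 CPM in hom and 158 ± 14.7 CPM in het stem libraries, against 14.0 ± 2.32 CPM in hom and 8.38 ± 3.45 CPM in het TA libraries. Over 6 Paneth cell markers the summed level was between 68700 and 844000 CPM in the 8 Paneth libraries, and at most 5070 CPM in any other. These CPM are scaled with TMM library sizes and are not shares of the counts of a library. The highest sum was that of the hom Paneth library of BN45, whose TMM factor was 0.448. The Paneth fraction also held goblet markers (5 genes, 623 to 16200 CPM) and enteroendocrine markers (6 genes, 3230 to 7840 CPM). Its tuft cell markers (5 genes) summed to 993 to 2160 CPM. Spink4 made up most of the goblet sum (6200 ± 5240 CPM in hom, 3320 ± 2970 CPM in het). Muc2, Tff3, Fcgbp and Clca1 each averaged lower there than in TA libraries of the same genotype. The 5 immune markers summed to 22.0 to 48.3 CPM, most of it Ptprc (32.6 ± 7.66 CPM in hom, 27.5 ± 5.27 CPM in het). Gzma averaged 1.87 CPM in hom and 4.11 CPM in het, and Cd3e, Cd8a and Cd79a at most 0.39 CPM. Lgr5 averaged 64.9 ± 12.7 CPM in hom and 51.4 ± 5.69 CPM in het Paneth libraries, above its TA levels. The summed level of 6 stem cell markers, Lgr5 among them, averaged 6440 CPM in hom and 4830 CPM in het Paneth libraries. In TA libraries that sum was higher, at 8040 CPM in hom and 6630 CPM in het. The Paneth values thus belong to a mixed fraction, and the part of these markers in any result below was not tested. In bulk libraries such as these, fewer cells of a type and less RNA per cell cannot be told apart.

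Levels above and below are CPM, counts scaled with TMM library sizes over all 24 libraries, so that the 6 groups share 1 scale. Per kilobase of exon length, Cd44 led in every group, at 17.2 CPM per kb in hom stem and 19.9 CPM per kb in het stem libraries. Tnfrsf19 and Rnf43 followed in stem libraries, at 12.2 and 9.19 CPM per kb in hom and 8.88 and 8.00 CPM per kb in het. In Paneth libraries Tcf7, Nkd1, Axin2 and Rnf43 lay close together, between 2.89 and 3.69 CPM per kb in hom and between 2.51 and 2.70 CPM per kb in het. At the other end, Notum and Apcdd1 stayed at or below 0.14 CPM per kb in all 6 groups.

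**Figure D1:**
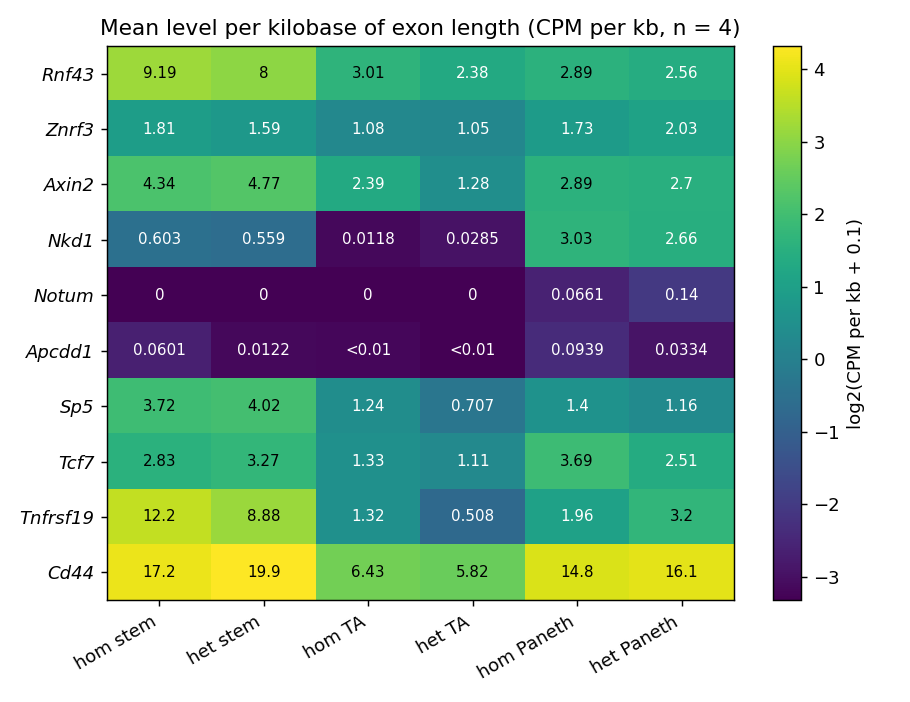
Mean level of the 10 genes in CPM per kilobase of exon length (rows) in the 6 groups (columns, 4 libraries each); colour is log2(CPM per kb + 0.1) and each cell prints its value. Cd44 is the highest row throughout, at 17.2 in hom stem and 19.9 in het stem, and Notum is 0 in every stem and TA group.

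Between fractions, Axin2, Sp5, Tnfrsf19 and Cd44, 4 of the 10 genes, had their highest mean level in stem and their lowest in TA libraries in both genotypes. Nkd1, Notum and Apcdd1 had their highest mean in the Paneth fraction in both, as Znrf3 did in het and Tcf7 in hom animals, and Rnf43 was highest in stem in both. This order depends on the scaling. By CPM of library totals, Axin2, Sp5 and Tnfrsf19 averaged lower in hom Paneth than in hom TA libraries. On that scale Znrf3 in het and Tcf7 and Apcdd1 in hom animals averaged highest in stem libraries. Tests are edgeR quasi-likelihood F tests over all genes, with Benjamini-Hochberg adjusted p below 0.05 as the threshold, and each comparison has its own scaling and fold changes. In hom animals, 5 of the 8 genes tested rose in stem over TA libraries, where 2.03% of all genes tested were called higher. In het animals, 6 of the 8 tested rose, where 2.69% of all genes were called higher. The median log2 difference of the genes tested was 1.49 in hom and 1.83 in het animals, beside 0.01 and 0.02 over all genes. Every stem library lay above every TA library for 6 of the tested genes in hom animals (6.44% of all genes) and for 8 in het animals (7.89%). Notum and Apcdd1 did not pass the filter on low counts in this comparison. Rnf43, Znrf3, Axin2, Sp5, Tcf7, Tnfrsf19 and Cd44 also passed it among TA libraries alone. Nkd1 did not, so that it was tested and counted here rests on its stem level. Markers of other cell types moved with these fractions. The 5 goblet markers summed to between 39.3 and 300.0 CPM in hom stem against 2780 to 7570 CPM in hom TA libraries, and to between 80.3 and 247 CPM in het stem against 2530 to 8310 CPM in het TA libraries. The 6 enterocyte markers summed to between 788 and 1040 CPM in hom stem against 1640 to 2060 CPM in hom TA libraries, and to between 868 and 1440 CPM in het stem against 1340 to 2540 CPM in het TA libraries. No marker of either list was at 0 throughout a group, and their part in the stem over TA differences was not tested.

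**Figure D2:**
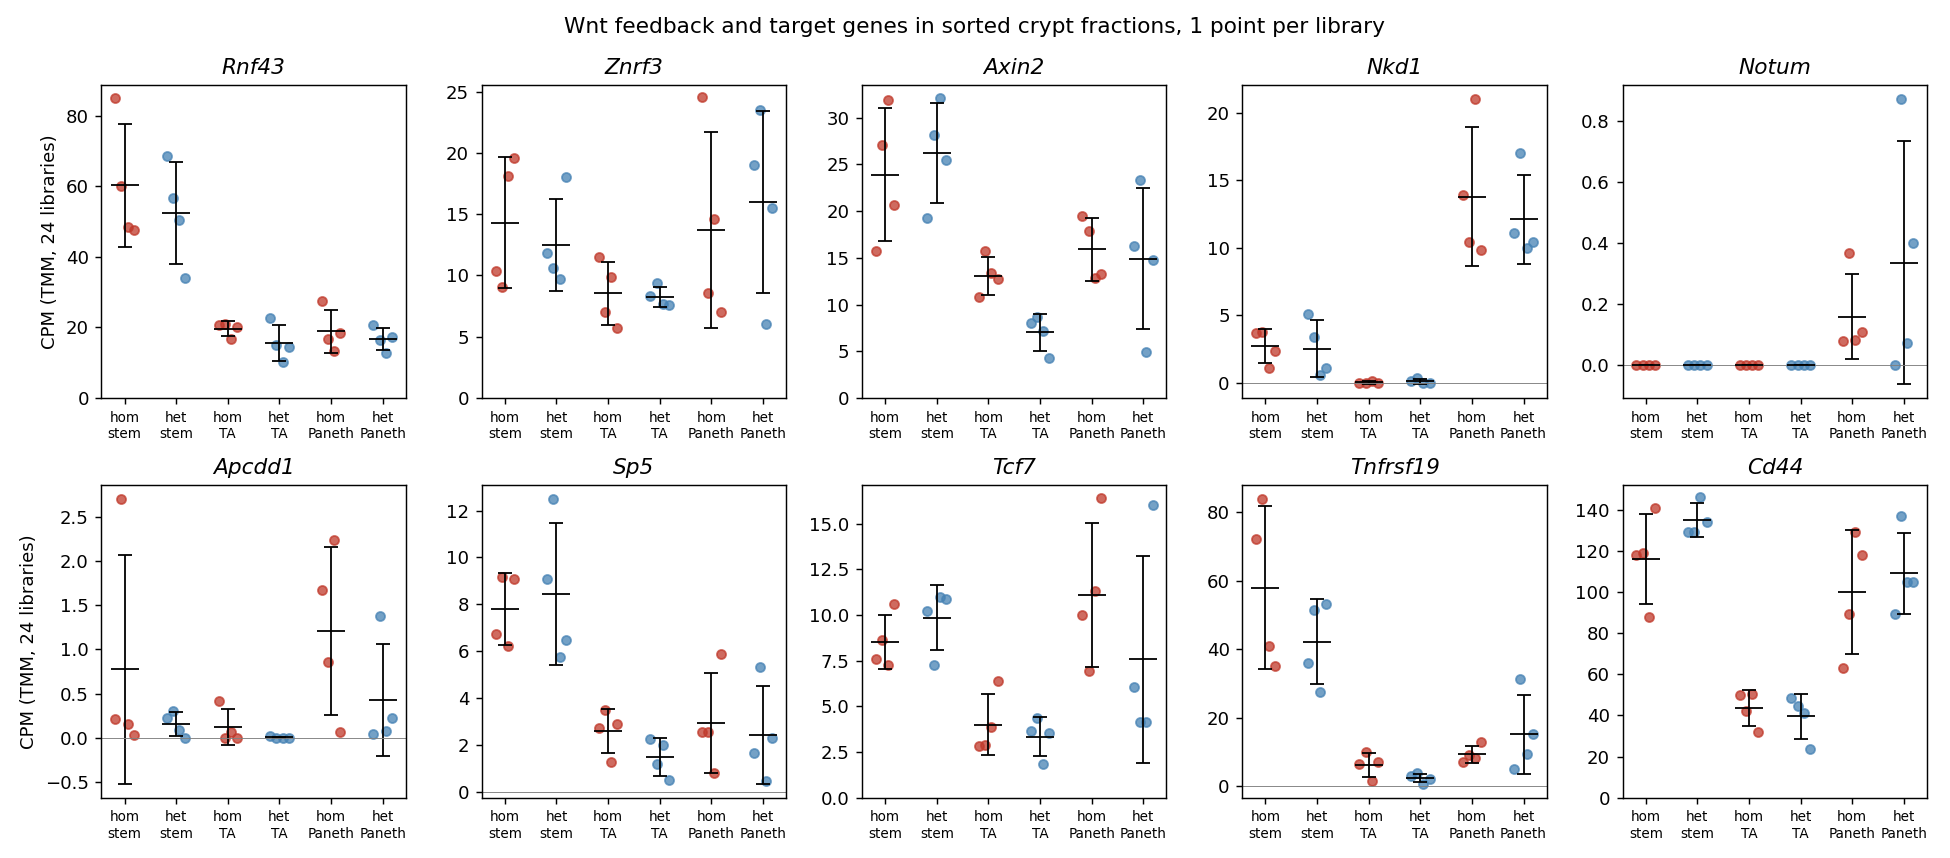
CPM of the 10 genes (y axis, linear, 1 panel per gene) in each library (points) of the 6 groups; the horizontal mark is the mean and the bar is 1 SD (n = 4), so that a bar can pass below 0. Nkd1 is highest in the Paneth groups (9.86 to 21.0 CPM), and Axin2 in TA lies between 10.8 and 15.7 CPM in hom and between 4.23 and 8.71 CPM in het libraries.

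Paneth over TA, 3 of 9 genes tested rose in hom animals, where 16.3% of all genes tested were called higher, and 3 of 8 rose in het animals, where 17.4% were. Nkd1 rose in both genotypes and did not pass the filter among TA libraries alone, so that it was tested here rests on its Paneth level. The same holds for Apcdd1, which was tested in hom animals and not called. Paneth over stem, 1 gene rose and 2 fell of 9 tested in hom animals, beside 17.4% of all genes called higher and 13.2% called lower. In het animals likewise 1 rose and 2 fell, of 8 tested, beside 17.3% higher and 11.0% lower. The counts of these genes called in the Paneth comparisons thus stood nearer to the background than those in stem over TA. Scaled by library totals alone, the median log2 difference of all genes was lower there by 0.49 to 0.66, and the calls turned over. In Paneth over TA 6.63% of all genes were then called higher and 23.4% lower in hom animals, and 9.35% higher and 21.5% lower in het. In Paneth over stem the shares were 7.54% higher and 22.3% lower in hom and 9.22% higher and 21.2% lower in het. With that scaling the direction flipped for Znrf3, Axin2, Sp5 and Tnfrsf19 in hom and Rnf43 in het Paneth over TA, and for Znrf3, Apcdd1 and Tcf7 in hom and Znrf3 in het Paneth over stem, none of which was called.

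**Figure D3:**
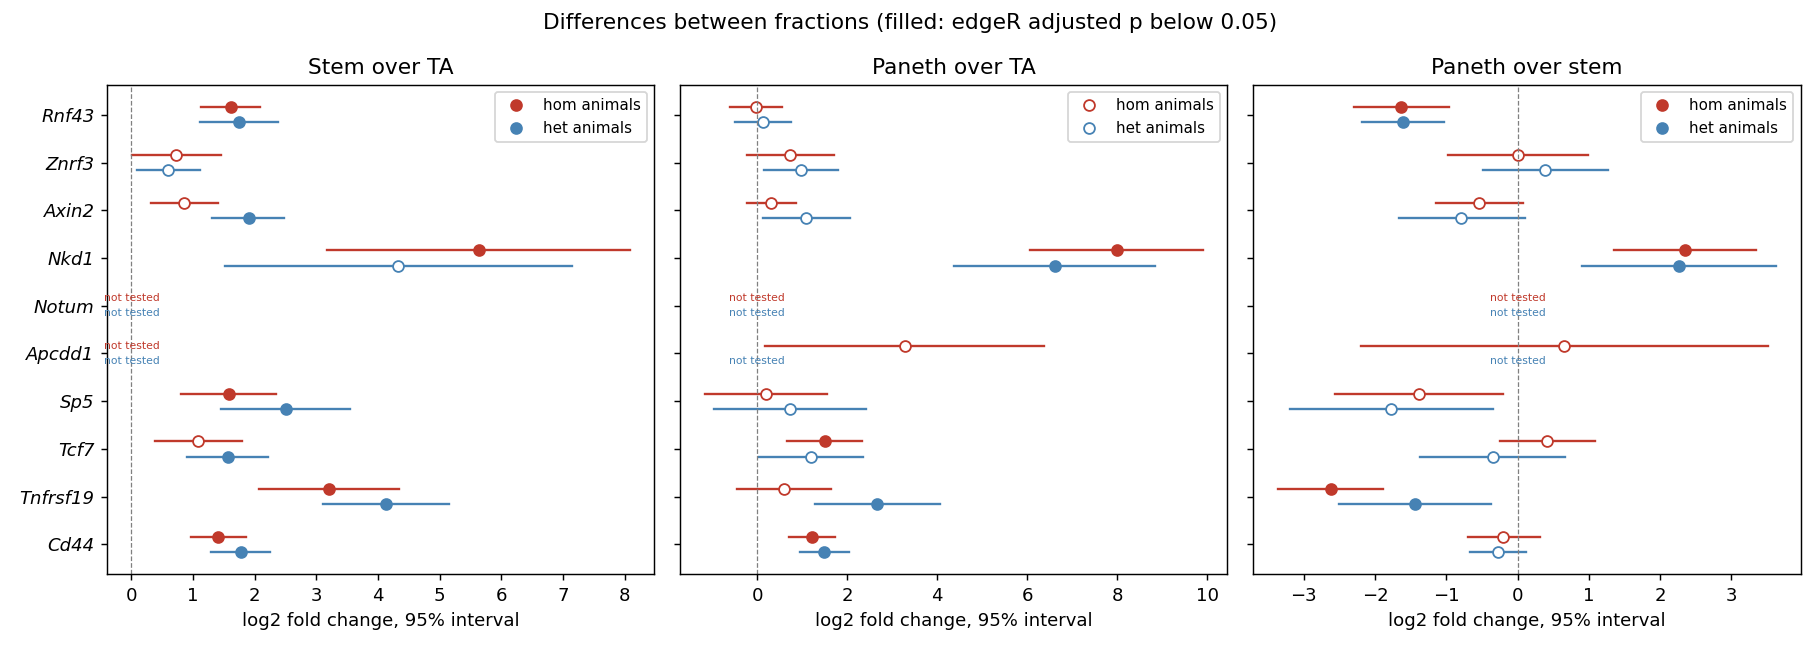
Log2 fold change (x axis) of each gene with its 95% interval for stem over TA, Paneth over TA and Paneth over stem, in hom (upper, red) and het animals (lower, blue); filled points passed the edgeR threshold. In stem over TA all points lie to the right of 0, and Nkd1 alone lies far to the right in all 3 panels, between 2.27 and 7.99.

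Rnf43 (ENSMUSG00000034177, chr11:87662722-87735539, mm10) and Znrf3 (ENSMUSG00000041961, chr11:5276324-5444847) encode transmembrane ubiquitin ligases that remove Frizzled receptors from the cell surface. Rnf43 had 85.0, 60.2, 48.4 and 47.6 CPM in hom stem libraries (animals in the order BN45, BO25, BO57, BP04 throughout) and 68.7, 56.7, 50.5 and 33.9 CPM in het stem libraries (in the order BN44, BO27, BO58, BP03). In TA it had 20.8, 21.1, 16.7 and 20.2 CPM in hom and 22.8, 14.9, 10.2 and 14.6 CPM in het libraries. In Paneth it had 27.5, 16.7, 13.2 and 18.3 CPM in hom and 20.6, 16.5, 12.9 and 17.2 CPM in het libraries. Within each genotype the stem libraries lay above all others, and the Paneth and TA libraries overlapped. Stem over TA, Rnf43 rose by 1.61 on the log2 scale in hom (SE 0.21, edgeR adjusted p = 0.0037) and by 1.75 in het animals (SE 0.28, edgeR adjusted p = 0.0072). Paneth over stem, it fell by 1.63 in hom (SE 0.30, edgeR adjusted p = 0.0031) and by 1.61 in het animals (SE 0.26, edgeR adjusted p = 0.0014). Paneth over TA, the log2 difference was -0.02 in hom (95% interval -0.60 to 0.56) and 0.13 in het animals (-0.50 to 0.76), and with library totals alone the hom value was -0.79 and passed (edgeR adjusted p = 0.049).

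Znrf3, although it encodes the closest relative of the Rnf43 protein, was more even across fractions. It averaged 14.3 ± 5.35 CPM in hom stem and 12.5 ± 3.74 CPM in het stem libraries. The TA means were 8.53 ± 2.60 CPM in hom and 8.25 ± 0.843 CPM in het libraries, and the Paneth means were 13.7 ± 8.00 CPM in hom and 16.0 ± 7.40 CPM in het libraries (SD, n = 4 each). No difference between fractions passed the threshold in either genotype. Stem over TA its log2 differences were 0.73 in hom (SE 0.32, edgeR adjusted p = 0.27) and 0.60 in het animals (SE 0.23, edgeR adjusted p = 0.17). In het animals Paneth over TA was 0.97 (SE 0.37, edgeR adjusted p = 0.075), and without the het Paneth library of BO58, at 6.06 CPM the lowest of the group, it was 1.24 and passed (edgeR adjusted p = 0.0053). It also passed in DESeq2 (adjusted p = 0.036) and among genes with a mean of at least 5 CPM (edgeR adjusted p = 0.046).

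Axin2 (ENSMUSG00000000142, chr11:108920349-108950783), the standard readout of Wnt signalling, encodes a scaffold of the complex that destroys beta-catenin. Its exons overlap those of the antisense gene Gm11670, and with unstranded counting their reads cannot be told apart. Axin2 had 15.7, 27.1, 31.9 and 20.7 CPM in hom stem and 19.3, 28.1, 32.1 and 25.5 CPM in het stem libraries. In TA it had 10.8, 15.7, 13.4 and 12.7 CPM in hom and 8.02, 8.71, 7.18 and 4.23 CPM in het libraries. In Paneth it had 19.5, 17.9, 12.8 and 13.3 CPM in hom and 16.3, 23.3, 4.97 and 14.8 CPM in het libraries. The stem and TA groups did not overlap in het animals, whereas in hom animals the lowest stem library and the highest TA library touched at 15.7 CPM. Stem over TA, Axin2 rose by 1.90 on the log2 scale in het animals (SE 0.26, edgeR adjusted p = 0.0034). In hom animals the difference was 0.85 (SE 0.25, edgeR adjusted p = 0.087), and among the alternatives it passed with the animal as a block (edgeR adjusted p = 0.038), in DESeq2 (adjusted p = 0.014) and without the hom stem library of BN45 (1.00, edgeR adjusted p = 0.048). Paneth over TA it was 0.31 in hom (SE 0.24, edgeR adjusted p = 0.36) and 1.09 in het animals (SE 0.44, edgeR adjusted p = 0.085). Without the het Paneth library of BO58 the het value was 1.38 and passed (edgeR adjusted p = 0.011), and it also passed in DESeq2 (adjusted p = 0.043) and in the fit of all 24 libraries (edgeR adjusted p = 0.016). With library totals alone, Axin2 was called lower in Paneth over stem in hom (-1.25, edgeR adjusted p = 0.015) and in het animals (-1.40, edgeR adjusted p = 0.017).

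Nkd1 (ENSMUSG00000031661, chr8:88521354-88594884) encodes a Dishevelled-binding inhibitor of Wnt signalling that Wnt itself induces. Nkd1 had 13.9, 10.4, 21.0 and 9.86 CPM in hom Paneth and 11.1, 17.0, 10.0 and 10.4 CPM in het Paneth libraries. In stem it had 3.70, 3.78, 1.14 and 2.38 CPM in hom and 5.12, 3.39, 0.61 and 1.08 CPM in het libraries. In TA it was nearly silent, with 1, 0, 6 and 0 counts in hom and 6, 12, 0 and 0 counts in het libraries. A count of 0 allows up to 3 counts, a limit that covers counting error only. That is between 0.0678 and 0.0882 CPM in the TA libraries at 0 here, and between 0.0524 and 0.238 CPM over all 24 libraries. The 3 fractions did not overlap in either genotype.

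Paneth over TA, Nkd1 rose by 7.99 on the log2 scale in hom (SE 0.86, edgeR adjusted p = 0.00028) and by 6.62 in het animals (SE 1.01, edgeR adjusted p = 0.0012). These sizes rest on a few TA counts. Without the hom TA library of BO57 the first was 9.99, and without the het TA library of BO27 the second was 7.93. Paneth over stem, Nkd1 rose by 2.35 in hom (SE 0.45, edgeR adjusted p = 0.0038) and by 2.27 in het animals (SE 0.61, edgeR adjusted p = 0.020; 2.86 without the het stem library of BN44). With library totals alone the het value was 1.71 and did not pass (edgeR adjusted p = 0.061). Stem over TA, Nkd1 rose by 5.63 in hom animals (SE 1.10, edgeR adjusted p = 0.020). That call was lost without either the stem or the TA library of BN45 or BO25 (edgeR adjusted p between 0.051 and 0.057), and the value was 7.77 without the TA library of BO57. In het animals the stem over TA value was 4.33 (SE 1.26, edgeR adjusted p = 0.078), and it passed with the animal as a block (edgeR adjusted p = 0.023), in DESeq2 (adjusted p = 0.0025) and in the fit of all 24 libraries (edgeR adjusted p = 0.0072).

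Sp5 (ENSMUSG00000075304, chr2:70474923-70477729) encodes a zinc finger transcription factor that Wnt signalling induces, and Tcf7 (ENSMUSG00000000782, chr11:52252371-52283331) encodes TCF1, one of the factors that carry beta-catenin to DNA. The promoters of Sp5 and Axin2, both called higher in het stem over TA libraries, are shown because they differ in Tcf/Lef core motifs. Capitals mark CTTTGA or CTTTGT on either strand, which read TCAAAG or ACAAAG on the strand shown. Each sequence is the 250 bases before a RefSeq gene start in GRCm38.p6, on the plus strand, at chr2:70474673-70474922 for Sp5 and chr11:108920099-108920348 for Axin2.
Sp5: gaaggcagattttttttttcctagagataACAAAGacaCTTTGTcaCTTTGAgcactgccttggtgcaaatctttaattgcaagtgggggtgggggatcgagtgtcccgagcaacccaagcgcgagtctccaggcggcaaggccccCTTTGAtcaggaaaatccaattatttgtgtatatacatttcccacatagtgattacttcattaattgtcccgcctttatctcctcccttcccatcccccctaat
Axin2: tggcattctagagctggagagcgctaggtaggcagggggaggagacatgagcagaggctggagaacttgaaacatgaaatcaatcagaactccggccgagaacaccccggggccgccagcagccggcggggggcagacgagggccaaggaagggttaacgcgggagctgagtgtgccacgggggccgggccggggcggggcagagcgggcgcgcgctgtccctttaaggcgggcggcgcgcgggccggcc
Sp5 holds 4 such cores, which begin 221, 212, 204 and 104 bases before the start and do not overlap each other, and Axin2 holds 0 in this window. RefSeq promoters matched 7 of the 10 genes (Znrf3, Notum and Apcdd1 had no entry). Of their 10 promoters, 2 hold a core (20.0%), the other being 1 of the pair at Tnfrsf19, beside 27.6% of the 32851 promoters in the table. A match describes letters in this window only.

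Sp5 had 6.74, 9.16, 6.24 and 9.07 CPM in hom stem and 9.07, 12.5, 5.77 and 6.46 CPM in het stem libraries. In TA it had 2.74, 3.50, 1.26 and 2.89 CPM in hom and 2.26, 1.17, 2.00 and 0.52 CPM in het libraries. In Paneth it had 2.54, 2.53, 0.789 and 5.90 CPM in hom and 1.67, 5.32, 0.438 and 2.28 CPM in het libraries. Stem libraries lay above all TA and Paneth libraries of their genotype. Stem over TA, Sp5 rose by 1.58 on the log2 scale in hom (SE 0.35, edgeR adjusted p = 0.031) and by 2.50 in het animals (SE 0.47, edgeR adjusted p = 0.014). The hom call was lost without any 1 of its 8 libraries (edgeR adjusted p between 0.051 and 0.084) and in the fit of all 24 libraries (edgeR adjusted p = 0.16). Paneth over stem, the log2 difference of Sp5 was -1.38 in hom (SE 0.53, edgeR adjusted p = 0.073) and -1.77 in het animals (SE 0.64, edgeR adjusted p = 0.064), and with the animal as a block both passed (edgeR adjusted p = 0.044 and 0.028). Both passed in DESeq2 (adjusted p = 0.031 and 0.023) and with library totals alone (edgeR adjusted p = 0.018 and 0.017). The hom value was -1.94 and passed without the hom Paneth library of BP04 (edgeR adjusted p = 0.020). The het value was -2.50 and passed without the het Paneth library of BO27 (edgeR adjusted p = 0.016), and it passed in the fit of all 24 libraries, with no filter and at a mean of at least 5 CPM (edgeR adjusted p between 0.025 and 0.044).

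Tcf7 had 10.0, 6.92, 11.3 and 16.4 CPM in hom Paneth and 6.04, 4.13, 4.13 and 16.0 CPM in het Paneth libraries. The TA libraries had 2.85, 2.91, 3.88 and 6.37 CPM in hom and 3.64, 4.34, 1.84 and 3.57 CPM in het animals. Stem libraries averaged 8.53 ± 1.49 CPM in hom and 9.86 ± 1.77 CPM in het animals (SD, n = 4 each), with all of them above their TA counterparts. Paneth and TA libraries did not overlap in hom animals and overlapped in het animals. Tcf7 rose by 1.50 on the log2 scale in hom Paneth over TA (SE 0.37, edgeR adjusted p = 0.015), a call lost with library totals alone (0.89, edgeR adjusted p = 0.16). In het animals the value was 1.19 (SE 0.52, edgeR adjusted p = 0.11; 0.027 in the fit of all 24 libraries). Stem over TA, it rose by 1.56 in het animals (SE 0.29, edgeR adjusted p = 0.015). In hom animals that difference was 1.08 (SE 0.32, edgeR adjusted p = 0.092). It passed with the animal as a block (edgeR adjusted p = 0.043), in DESeq2 (adjusted p = 0.013) and without the hom TA library of BP04 (1.40, edgeR adjusted p = 0.034).

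Tnfrsf19 (ENSMUSG00000060548, chr14:60963875-61046490) encodes TROY, a receptor of the tumour necrosis factor family that marks Lgr5+ stem cells. It had 72.0, 83.8, 40.9 and 35.0 CPM in hom stem and 36.0, 51.5, 27.5 and 53.2 CPM in het stem libraries. In TA it had 6.36, 10.1, 1.64 and 6.97 CPM in hom and 3.10, 3.72, 0.783 and 2.01 CPM in het libraries. In Paneth it had 6.99, 9.00, 8.35 and 12.8 CPM in hom and 5.02, 31.3, 9.35 and 15.1 CPM in het libraries. Stem lay apart from TA in both genotypes and from Paneth in hom animals, whereas the het Paneth library of BO27 reached the stem range. Among the genes called in stem over TA in both genotypes Tnfrsf19 had the largest differences, 3.21 on the log2 scale in hom (SE 0.51, edgeR adjusted p = 0.0078) and 4.13 in het animals (SE 0.46, edgeR adjusted p = 0.0015).

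Paneth over stem, Tnfrsf19 fell by 2.62 in hom (SE 0.33, edgeR adjusted p = 0.00042) and by 1.44 in het animals (SE 0.48, edgeR adjusted p = 0.046). The het call was lost without any 1 of 7 of its 8 libraries (edgeR adjusted p between 0.052 and 0.10), the exception being the Paneth library of BO27, without which it was -2.07 (edgeR adjusted p = 0.0062). Paneth over TA, it rose by 2.67 in het animals (SE 0.63, edgeR adjusted p = 0.011), or 2.06 without that library, and the difference was 0.59 in hom animals (SE 0.47, edgeR adjusted p = 0.38). Cd44 (ENSMUSG00000005087, chr2:102811141-102901665) encodes the hyaluronan receptor of crypt base cells. Cd44 had 118, 119, 87.8 and 141 CPM in hom stem and 129, 129, 146 and 134 CPM in het stem libraries. In TA it had 49.7, 42.2, 50.6 and 31.8 CPM in hom and 48.5, 44.5, 41.2 and 23.8 CPM in het libraries. In Paneth it had 62.9, 89.5, 129 and 118 CPM in hom and 89.5, 137, 105 and 105 CPM in het libraries. Both stem and Paneth libraries lay above all TA libraries of their genotype, and overlapped each other.

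Stem over TA, Cd44 rose by 1.41 on the log2 scale in hom (SE 0.20, edgeR adjusted p = 0.0048) and by 1.77 in het animals (SE 0.21, edgeR adjusted p = 0.0020). Paneth over TA, Cd44 rose by 1.22 in hom (SE 0.23, edgeR adjusted p = 0.0045) and by 1.49 in het animals (SE 0.24, edgeR adjusted p = 0.0018), and with library totals alone the hom value was 0.65 and did not pass (edgeR adjusted p = 0.23). Paneth over stem its log2 differences were -0.20 in hom (95% interval -0.70 to 0.31) and -0.27 in het animals (-0.67 to 0.12), and with library totals alone the het value was -0.78 and passed (edgeR adjusted p = 0.049).

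Notum (ENSMUSG00000042988, chr11:120653788-120661175) encodes a secreted enzyme that strips the lipid from Wnt ligands, and Apcdd1 (ENSMUSG00000071847, chr18:62922231-62961179) a membrane-bound Wnt inhibitor. Notum had 0 counts in all 16 stem and TA libraries. Its Paneth libraries had 1, 9, 2 and 3 counts in hom and 0, 19, 2 and 9 counts in het animals. The exons of Notum overlap the antisense genes Notumos and Myadml2os, whose reads cannot be told apart from its own, and it did not pass the filter of edgeR in any comparison. DESeq2, run without that filter, called Notum in het Paneth over TA (adjusted p = 0.028) and over stem (adjusted p = 0.027), where the het Paneth library of BO27 holds most of its counts. Apcdd1 had 0.213, 2.70, 0.154 and 0.0305 CPM in hom stem and 0.227, 0.310, 0.0916 and 0 CPM in het stem libraries. Its Paneth libraries had 1.67, 0.855, 2.24 and 0.0719 CPM in hom and 0.0465, 1.38, 0.073 and 0.224 CPM in het animals, and its TA libraries at most 0.422 CPM in hom and 0.0217 CPM in het. Outside the Paneth fraction Apcdd1 had over 3 counts in 6 libraries, with 9, 123 and 5 counts in the hom stem libraries of BN45, BO25 and BO57, 16 in the hom TA library of BN45, and 13 and 15 in the het stem libraries of BN44 and BO27. Paneth over TA, Apcdd1 was higher by 3.28 on the log2 scale in hom animals (SE 1.39, edgeR adjusted p = 0.10), and it passed with the animal as a block (edgeR adjusted p = 0.033) and without the hom TA library of BN45 (5.64, edgeR adjusted p = 0.033). In het animals Apcdd1 did not pass the filter in Paneth over TA, and it was called in DESeq2 (adjusted p = 0.0075) and in the fit of all 24 libraries (edgeR adjusted p = 0.025).

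Between genotypes, none of the 10 genes passed the threshold in any fraction. In hom over het stem libraries 0 of 8 tested were called by edgeR, 0 had an unadjusted p under 0.05 and DESeq2 called 0, beside 0.0125% of all genes called by edgeR. In TA 0 of 7 tested were called by edgeR, 2 had an unadjusted p under 0.05 and DESeq2 called 0, beside 0.0% of all genes called. In Paneth 0 of 9 tested were called by edgeR, 0 had an unadjusted p under 0.05 and DESeq2 called 0, beside 0.0% of all genes. Over all genes, the unadjusted edgeR p was under 0.05 for 1081 of 16056 in stem, 942 of 15925 in TA and 368 of 16108 in Paneth libraries. DESeq2 called 278 of 18705, 121 of 18482 and 27 of 22251. The median log2 difference was -0.01 in stem, 0.35 in TA and 0.17 in Paneth libraries, and over all genes it was 0 in each. A p above the threshold does not show that the levels were alike, and the intervals below give the sizes that the data allow.

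**Figure D4:**
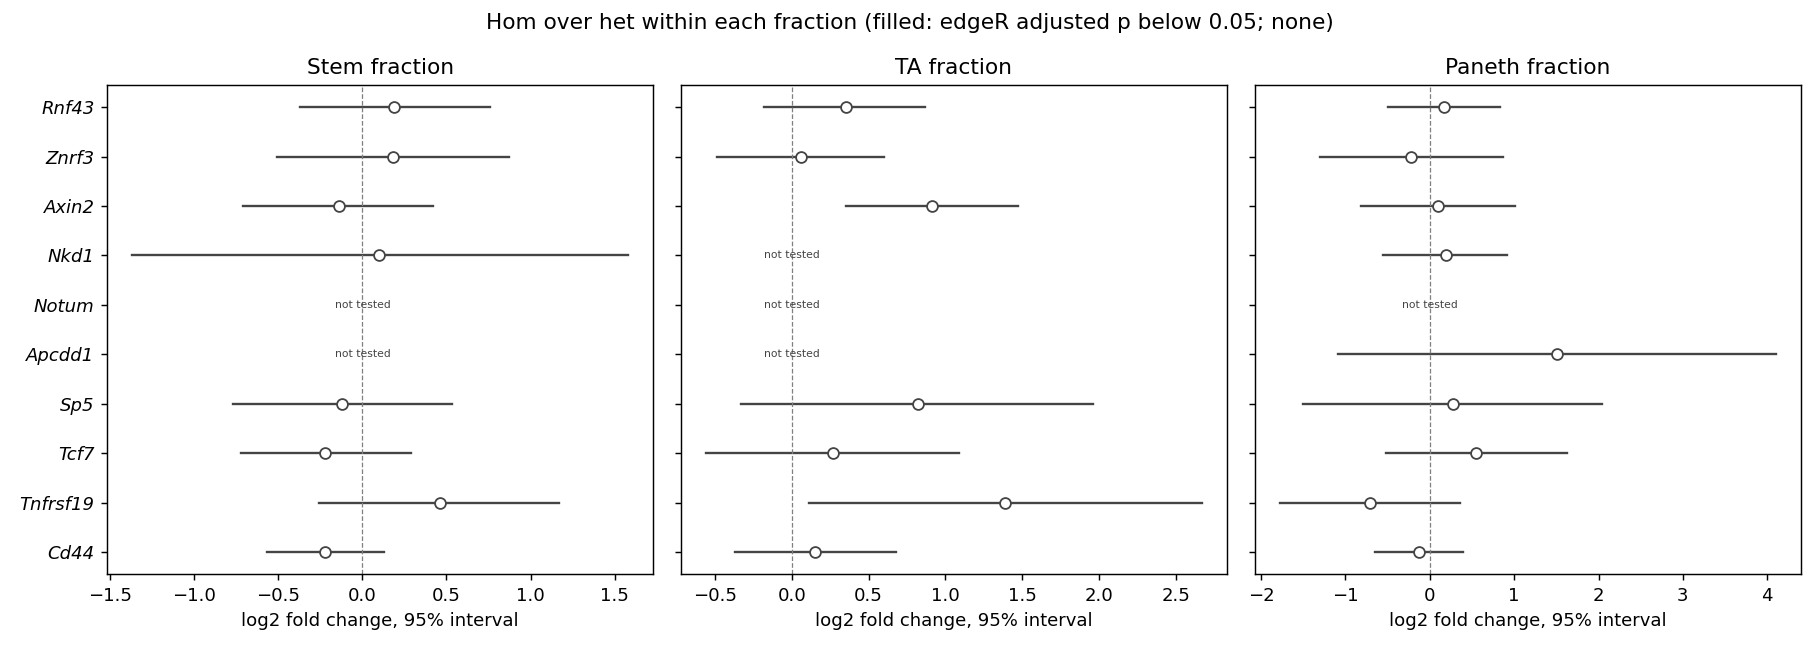
Log2 fold change (x axis) of hom over het libraries with its 95% interval for each gene in the stem, TA and Paneth fractions (4 against 4 libraries); open points did not pass the edgeR threshold. In TA all 7 points lie to the right of 0, and the intervals of Axin2 (0.35 to 1.47) and Tnfrsf19 (0.11 to 2.67) leave out 0.

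In TA all 7 genes tested were higher on average in hom libraries, where 50.0% of all genes had a positive difference, but none was called. Earlier results of these data already show Wnt targets on this side, so the direction is not independent support. Axin2, whose libraries are given above, averaged 13.1 ± 2.04 CPM in hom and 7.03 ± 1.97 CPM in het TA libraries (SD, n = 4 each). It was the only 1 of the 7 whose hom libraries all lay above the het ones, as 1.97% of all genes did. Its log2 difference was 0.91 (SE 0.25, unadjusted p = 0.0048, edgeR adjusted p = 0.62), and over the alternatives the edgeR or DESeq2 adjusted p ran between 0.073, in DESeq2, and 0.93, without the het TA library of BP03. Leaving out any 1 library gave between 0.73 and 1.03. Tnfrsf19 averaged 6.26 ± 3.48 CPM in hom and 2.41 ± 1.29 CPM in het TA libraries, with overlap (log2 1.39, SE 0.58, unadjusted p = 0.037, edgeR adjusted p = 0.81). Sp5 averaged 2.60 ± 0.950 CPM in hom and 1.48 ± 0.793 CPM in het TA libraries (log2 0.82, SE 0.51, edgeR adjusted p = 0.93). The other 4 had log2 differences between 0.06 for Znrf3 and 0.35 for Rnf43.

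Of the 6 stem cell markers, 5 had a higher mean in hom than in het TA libraries, and Smoc2 the lower one, at 160 ± 23.0 CPM in hom and 178 ± 28.2 CPM in het (SD, n = 4 each). Olfm4 made up most of their sum, with 7090 ± 1410 CPM in hom and 5840 ± 1460 CPM in het TA libraries. The 6 markers summed to between 6380 and 10100 CPM in hom and between 4880 and 8420 CPM in het TA libraries, with 0 of the 6 at 0 in either group, and Lgr5 ran between 10.7 and 16.0 CPM in hom and between 5.48 and 12.8 CPM in het. The 6 Paneth markers summed to between 679 and 5070 CPM in hom and between 865 and 1630 CPM in het TA libraries, with the hom TA library of BN45 highest. Their part in the TA differences was not tested.

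In stem libraries the log2 differences ran from -0.22 for Tcf7 and Cd44 up to 0.46 for Tnfrsf19, with 4 of 8 above 0, as were 50.5% of all genes. Tnfrsf19 averaged 57.9 ± 23.7 CPM in hom and 42.1 ± 12.4 CPM in het stem libraries (95% interval of the log2 difference -0.26 to 1.17). Axin2 averaged 23.9 ± 7.12 CPM in hom and 26.2 ± 5.35 CPM in het stem libraries (log2 -0.14, 95% interval -0.71 to 0.42). The 6 enterocyte markers summed to between 788 and 1040 CPM in hom stem libraries, and to 889, 1310, 868 and 1440 CPM in het stem libraries, highest in BO27 and BP03. Their part in these differences was not tested. In Paneth libraries Tcf7 averaged 11.1 ± 3.93 CPM in hom and 7.57 ± 5.67 CPM in het libraries (log2 0.55, 95% interval -0.52 to 1.63). Tnfrsf19 lay the other way there, at 9.28 ± 2.47 CPM in hom and 15.2 ± 11.5 CPM in het libraries (log2 -0.71, 95% interval -1.78 to 0.36). In all, 6 of 9 lay above 0, beside 49.6% of all genes. The widest interval was that of Apcdd1, with a log2 difference of 1.51 in Paneth libraries (-1.09 to 4.10).

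Differences between fractions in the genotype effect were tested as interactions in 1 edgeR fit of all 24 libraries, for 9 genes, and 0 were called in any of the 3 interactions, by edgeR or DESeq2. Over all genes 0.0% were called for stem minus TA and for stem minus Paneth, and 0.00516% for TA minus Paneth. For stem minus TA, 1 gene had an unadjusted p under 0.05, Axin2 (log2 -1.04, SE 0.46, unadjusted p = 0.036, edgeR adjusted p = 1.0), so that the smaller stem over TA difference of Axin2 in hom than in het animals is not shown to differ by genotype. For TA minus Paneth, 1 gene had an unadjusted p under 0.05, Tnfrsf19 (log2 2.09, SE 0.74, unadjusted p = 0.0097, edgeR adjusted p = 0.91). For stem minus Paneth 0 had an unadjusted p under 0.05. Of all 19396 genes tested, 767 had one for stem minus TA, 1219 for stem minus Paneth and 965 for TA minus Paneth.

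Around these genes, other parts of the pathway differed between fractions, with few calls between genotypes. Of 18 receptor and co-receptor genes, 25 ligand and secretion genes, 13 secreted inhibitors, 21 cytoplasmic and 19 nuclear components and 17 further targets found in the table, edgeR called 0 in hom over het libraries of any fraction. An unadjusted p under 0.05 was reached by 6 of 71 tested in stem, 3 of 69 in TA and 2 of 74 in Paneth libraries. Over all genes tested it was reached by 1081 of 16056, 942 of 15925 and 368 of 16108. DESeq2 called 2 of these Wnt genes in stem (Nedd9 and Vegfa), 1 in TA (Ryk) and 0 in Paneth libraries. These names were picked after their values were seen. Over all genes DESeq2 called 278 of 18705, 121 of 18482 and 27 of 22251. Among ligands, Wnt3 rose in the Paneth fraction, with 35.3 ± 22.1 CPM in hom Paneth against 2.00 ± 0.634 CPM in hom TA libraries and 38.6 ± 17.4 CPM in het Paneth against 1.59 ± 0.568 CPM in het TA libraries (log2 4.20 and 4.61, edgeR adjusted p = 0.00054 and 9.5e-05). It was the 1 ligand gene called higher in Paneth over TA in each genotype, of 4 tested in hom and 5 in het animals. Of all genes tested there, 16.3% were called higher in hom and 17.4% in het animals. Wls, which escorts Wnt ligands out of the cell, fell in Paneth over stem, at 81.6 ± 16.9 CPM in hom Paneth against 185 ± 65.8 CPM in hom stem libraries (edgeR adjusted p = 0.011).

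Of the receptors, 2 of 14 tested rose in hom stem over TA and 3 of 14 rose in het, where 1 fell. Beside them, 2.03% of all genes were called higher in hom, and 2.69% higher and 3.57% lower in het animals. The R-spondin receptor gene Lgr5 (log2 3.84 in hom and 4.23 in het, edgeR adjusted p = 1.1e-05 and 0.00030) and Fzd7 (1.05 and 1.25, edgeR adjusted p = 0.035 and 0.011) rose in both. Fzd5 was the receptor that fell in het stem over TA (log2 -0.76, edgeR adjusted p = 0.011). Fzd9 averaged 6.32 ± 4.47 CPM in hom Paneth against 0.0594 ± 0.119 CPM in hom TA libraries, and 5.01 ± 2.83 CPM in het Paneth against 0.0217 ± 0.0434 CPM in het TA libraries (edgeR adjusted p = 0.0044 and 0.0012). At such TA levels, that Fzd9 was tested rests on its Paneth level. The secreted inhibitor gene Dkk3 had 0 counts in all TA and stem libraries, and it averaged 2.69 ± 1.66 CPM in hom and 2.10 ± 1.67 CPM in het Paneth libraries.

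Paneth over TA, 16.3% of all genes were called higher in hom and 17.4% in het animals, and 12.2% and 11.8% were called lower. The counts of the lists depend on the scaling as those of all genes do. Of the cytoplasmic components, 6 of 17 rose and 0 fell in hom Paneth over TA, and 8 of 17 rose and 0 fell in het, against 1 and 3 that rose with library totals alone. They include the Dishevelled gene Dvl1 (log2 2.03 in hom and 1.69 in het, edgeR adjusted p = 0.00017 and 0.00089). Of the nuclear components 9 of 17 rose in hom and 8 of 17 in het Paneth over TA, and 0 fell, against 3 that rose and 1 that fell in hom and 4 and 0 in het with library totals alone. The co-repressor gene Tle3 was among them (log2 2.45 and 2.52, edgeR adjusted p = 0.0014 and 0.00030). In hom animals Tcf7l1 and Tle2 were counted too, at 0.0542 ± 0.0655 and 0.267 ± 0.265 CPM in TA libraries. That these were tested rests on their Paneth level. Of the further targets, 7 of 16 rose and 1 fell in hom stem over TA, and 5 of 16 rose and 2 fell in het. Of all genes tested there, 2.03% were called higher and 2.58% lower in hom, and 2.69% higher and 3.57% lower in het animals. Ascl2, the stem cell transcription factor, rose by 1.74 in hom (edgeR adjusted p = 0.00098) and by 2.05 in het animals (edgeR adjusted p = 0.0060). In Paneth over TA, 7 rose and 3 fell in hom and 8 rose and 3 fell in het (5 and 3 in each with library totals alone), among them Sox9 (log2 2.50 and 2.94) upward and the cyclin gene Ccnd2 (-1.33 and -1.77) downward, with edgeR adjusted p between 0.00021 and 0.00081.

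The genes did not share 1 profile over the 24 libraries, whose points share fraction, animal and depth. By Pearson correlation of log2(CPM + 1), the gene most like Tnfrsf19 was Lgr5 (r = 0.90), followed by Rgmb (0.90) and App (0.89). Those most like Rnf43 were Igfbp4 (0.92), Lcp1 (0.91) and Smoc2 (0.91), and those most like Axin2 were Slc23a3 (0.87), Tns3 (0.85) and Rgmb (0.84). Among the genes most like Nkd1 were Marcksl1 (0.95) and Pip5k1b (0.94), and Cd44 went with Vav3 (0.90), Nav1 (0.90) and Utrn (0.88). Likeness was weaker for Tcf7, with Sesn3 (0.81), Utrn (0.77) and Fmnl2 (0.76), and for Znrf3, with Foxn3 (0.77), Zfp131 (0.71) and Glul (0.71). Among the genes themselves, Rnf43 and Sp5 (r = 0.83), Sp5 and Tnfrsf19 (0.82) and Rnf43 and Tnfrsf19 (0.81) went together most, while Rnf43 and Nkd1 did not (-0.01). Around the group means most pairs were loosely related, with the largest values for Sp5 and Tnfrsf19 (0.52), Axin2 and Znrf3 (0.52) and Axin2 and Sp5 (0.51).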

How the data were processed

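RNA of 24 libraries from sorted small intestinal crypt cells of 8 mice was measured. The file deposited by the authors gives raw counts for each gene. Per the file headers, the authors counted fragments of read pairs with featureCounts 2.0.1, unstranded, at a mapping quality of at least 1, and the folder of alignments was named gsnap, its version not given in the sources used here. Ensembl 98 gene models and bcl2fastq 2.20.0 come from the header and the submitters' processing notes, and the build was mm10. The table holds 55421 genes, each with an exon length that the authors deposited in the same file, and 92 ERCC sequences (at most 6 counts per library, left out of library sizes and tests). 0 value columns belong to no sample. Symbols matched 55154 gene IDs.

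Counts were analysed as deposited with edgeR 4.0.16 in R 4.3.3: TMM, filterByExpr, quasi-likelihood F test, Benjamini-Hochberg over all genes, threshold 0.05. Levels are CPM with TMM over 24 libraries. SE is the size of the log2 fold change over the root of F, and 95% intervals use the t distribution at the fit's degrees of freedom. The comparisons were hom over het in 3 fractions, fractions within each genotype, and 3 interactions. Alternatives were DESeq2 1.42.0, RLE scaling, library totals alone, no filter, a mean of at least 5 CPM, 1 fit of all 24 libraries, a replicate block and leaving out each library. Fractions of 1 animal pair by the labels, and of 24 same-animal pairs of libraries 22 had deviations from the group means that correlated above 0.1 (-0.06 to 0.65). Nothing in the labels says how animals were bred or handled together. The p-values of hom over het within a fraction measure the spread between these animals. Outside the replicate block, the fits of fractions and interactions had no term for the animal and took libraries of 1 animal as independent. The fit was tested on simulated data.

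The members, gene lists, tests and the rule for named genes were chosen with earlier results of these data known. That rule names all 10 members, up to 4 called genes of each other Wnt list per comparison by smallest p, and for members with a mean of at least 5 CPM the 3 most correlated genes. The text gives a selection of them, and 1 gene named by the rule is not reported here. Promoters are from RefSeq, GRCm38.p6.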

Additional observations from a re-analysis of the deposited data

Results flagged for a closer look

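Levels were checked in 53 sets of 4 libraries with at least 10 counts, where chance flags about 1 in 20 groups, or 2.6 of them, and 5 were found in which 1 library lay far from the other 3. Nkd1 stood at 17.0 CPM in the het Paneth library of BO27, and at 10.0 to 11.1 CPM in the other het Paneth libraries. Apcdd1 stood at 1.38 CPM in that same library, against 0.0465 to 0.224 CPM in the others of its group. Apcdd1 stood at 2.70 CPM in the hom stem library of BO25, against 0.0305 to 0.213 CPM, and at 0.422 CPM in the hom TA library of BN45, against 0 to 0.063 CPM. Tcf7 stood at 16.0 CPM in the het Paneth library of BP03, and at 4.13 to 6.04 CPM in the other het Paneth libraries.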

How the results depend on the processing

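Notum and Apcdd1 had the fewest counts of the 10 genes, 45 and 324 over the 24 libraries, and the part of depth in this was not tested. With 4 libraries a group the fitted intervals of low genes are wide. None of the 10 genes was called between genotypes or in an interaction under any alternative run. Of the counts of these genes called, those that moved by over 1.5 times were in het Paneth over TA, 3 by edgeR against 5 with no filter, 7 in DESeq2 and 6 in 1 fit of 24 libraries, in het Paneth over stem, 3 against 5 with library totals alone, 5 with no filter and 5 in DESeq2, and in hom Paneth over stem, 3 against 5 with library totals alone. Leaving out 1 library gave 3 to 5 in het Paneth over TA (5 without the het Paneth library of BO58), 2 to 4 in het Paneth over stem, 3 to 5 in hom stem over TA (3 without the TA library of BN45 or the stem or TA library of BO25), 3 to 4 in hom Paneth over TA and over stem and 6 in het stem over TA. The replicate block of the animal raised the count to 7 in het and 7 in hom stem over TA and changed no call of these genes but those given with it above, and the replicate block of code letters changed none. With CPM of library totals, Rnf43 moved to 22.6 CPM in hom TA and 13.6 in het Paneth, Znrf3 to 9.48 in het TA, Axin2 to 11.3 in hom Paneth and Cd44 to 157 in het stem libraries.

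The sign changed only for log2 differences that were not called. With library totals alone, hom over het in Paneth was -0.06 for Rnf43 and -0.04 for Axin2, Rnf43 was -0.41 in het Paneth over TA and Znrf3 -0.21 in het Paneth over stem. In hom Paneth over TA, Znrf3 was -0.09, Axin2 -0.42, Sp5 -0.50 and Tnfrsf19 -0.05, and in hom Paneth over stem, Znrf3 was -0.78, Apcdd1 -0.04 and Tcf7 -0.19. With the replicate block of the animal, Sp5 was -0.02 in hom Paneth over TA, Znrf3 -0.13 in hom Paneth over stem and Nkd1 0.59 in the interaction stem minus Paneth. Rnf43 in hom Paneth over TA was 0.06 at a mean of at least 5 CPM, and Znrf3 in hom Paneth over stem was -0.07 with no filter and -0.07 in 1 fit of 24 libraries. Without the het stem libraries of BO27 and BP03, hom over het in stem was -0.07 for Nkd1 and 0.06 for Sp5. Leaving out 1 library, hom over het in stem ran over -0.02 to 0.35 for Rnf43, -0.01 to 0.40 for Znrf3, -0.31 to 0.01 for Axin2, -0.23 to 0.68 for Nkd1 and -0.27 to 0.13 for Sp5. In TA it ran over -0.12 to 0.21 for Znrf3, -0.05 to 0.42 for Tcf7 and -0.03 to 0.28 for Cd44. In Paneth it ran over -0.11 to 0.32 for Rnf43, -0.71 to 0.01 for Znrf3, -0.19 to 0.39 for Axin2, -0.08 to 0.38 for Nkd1, -0.30 to 0.99 for Sp5 and -0.28 to 0.00 for Cd44. Rnf43 in Paneth over TA ran over -0.30 to 0.11 in hom and -0.05 to 0.37 in het, Sp5 in hom Paneth over TA over -0.36 to 0.50 and Znrf3 in hom Paneth over stem over -0.49 to 0.24. The interaction stem minus TA ran over -0.31 to 0.01 for Rnf43, -0.21 to 0.45 for Znrf3 and -4.36 to 1.27 for Apcdd1. Stem minus Paneth ran over -0.14 to 0.14 for Rnf43, 0.00 to 0.99 for Znrf3, -0.51 to 0.18 for Axin2, -0.39 to 0.55 for Nkd1, -1.87 to 1.60 for Apcdd1, -0.88 to 0.12 for Sp5 and -0.26 to 0.18 for Cd44. TA minus Paneth ran over -0.31 to 1.07 for Sp5 and -0.94 to 0.05 for Tcf7. Beyond what fewer genes or samples explain by construction, the cause was not tested.

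Over all genes, DESeq2 called 278 in stem, 121 in TA and 27 in Paneth libraries between genotypes, where edgeR called 2, 0 and 0. Other settings that kept every library gave 2 to 18, 0 to 4 and 0 to 8. Leaving out the het stem libraries of BO27 and BP03 gave 1 in stem, and leaving out 1 library gave 0 to 3, 0 and 0. Stem over TA, edgeR called 736 in hom and 1013 in het animals, against 1954 and 2235 in DESeq2, 1427 and 1848 with the animal block, and 376 to 572 and 580 to 894 without 1 library. Paneth over TA and over stem in het animals, edgeR called 4721 and 4600, against 7201 and 6953 in DESeq2. For the interactions stem minus TA, stem minus Paneth and TA minus Paneth, edgeR called 0, 0 and 1 and DESeq2 19, 59 and 32.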
